A study of Mus musculus with 18 samples.

Results

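The genes described here encode the DNA damage signalling machinery that marks and silences unsynapsed chromatin in male meiosis. They were chosen by name: Brca1, Bard1, Atm, Atr, Atrip, Topbp1, Rnf8, H2ax and Chek1. Of these 9 genes, 8 had a probe set among the 16539 of the array table, 1 each, and Atr was not analysed here. All 8 passed the filter on low values in every comparison. The data were 18 mouse expression arrays, and every level below is a log2 GCRMA value, on which 1 unit is a 2-fold difference.

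RNA of 10 arrays came from spermatocytes isolated by flow cytometric sorting from males aged 2 months. Pre-mid-pachytene cells came from carriers labelled Ttf+/+T43H (n = 3), from carriers labelled t12+/+T43 (n = 3) and from C57BL/10J males, which the design text calls fertile (n = 2). Mid-late-pachytene cells came from C57BL/10J males (n = 2). RNA of 8 further arrays came from whole testes, freed of the tunica, of males aged 15 days. These were 3 arrays of Ttf+/+T43H carriers, 3 of t12+/+T43 carriers and 2 of C57BL/6J males. Both carrier lines are labelled as C57BL/10J lines, in sorted cells and in testes. T43H is a translocation between chromosomes 16 and 17, and t12 is a t haplotype, a variant form of proximal chromosome 17. The control strain thus differed between the tissues, and a carrier testis differed from its control in strain background as well as in the translocation. The design text calls the replicates biological, and whether a sorted sample held 1 male or several was not given in the sources used here.

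Homologous chromosomes pair and synapse in meiotic prophase, and chromosome axes that stay unsynapsed recruit BRCA1 and the kinase ATR with its partner ATRIP. TOPBP1 activates ATR, and the kinase phosphorylates the histone variant H2AX along the axes and loops. In normal males this silences the X and Y chromosomes in pachytene, and an unsynapsed autosomal segment can be silenced in the same way. RNF8 adds ubiquitin to the marked chromatin. Atr itself has no value below, so the kinase is represented by its partner ATRIP and its activator TOPBP1. The arrays measure transcripts, not the proteins or their phosphorylation.

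The arrays of sorted cells varied more than those of testes. Replicates of 1 group correlated at r = 0.963 to 0.996 across genes in sorted cells and at 0.998 to 0.999 in testes. Ttf+/+T43H pre-mid replicate 2 stood apart: it correlated at 0.974 and 0.963 with the other 2 arrays of its group, which correlated at 0.995 with each other. In that array the mean of 6 spermatogonial markers was 9.62, against 7.12 and 6.58 in the other 2. In t12+/+T43 pre-mid replicate 3 the mean of 5 Leydig cell markers was 10.61, against 8.03 and 8.12 in the other 2. The difference between 3' and 5' Gapdh probe sets, a measure of RNA or label quality, was 3.26 to 3.98 in carrier sorted cells, 2.86 to 2.93 in C57BL/10J pre-mid cells, 2.51 to 3.39 in mid-late cells and -0.12 to 0.14 in testes. The same difference for actin was 3.06 to 4.41 in Ttf+/+T43H, 3.13 to 3.99 in t12+/+T43, 2.49 to 2.51 in C57BL/10J pre-mid cells, 3.38 to 3.51 in mid-late cells and 1.11 to 1.37 in testes. Lists of marker genes for other cell types bear on the purity of the sort, and their values are given beside the results they move with.

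In C57BL/10J males 7 of the 8 genes fell between the pre-mid-pachytene and the mid-late-pachytene cells, and Bard1 did not pass the test. The 7 genes fell by 1.76 to 7.22 on the log2 scale (limma, adjusted p 5.4e-06 to 0.037, n = 2 each). Over all 9666 genes tested, 30.3% fell and 56.5% changed in either direction. The median difference was -2.49 over the 8 genes and -0.11 over all genes. The groups did not overlap for all 8 genes, which held for 88.4% of all genes.

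The promoters of 5 genes are shown because these genes span the results: Atm fell most between the stages, Brca1 and Rnf8 are the genes called in carrier cells, Topbp1 stands for the activation of ATR, and Bard1 is the one that did not pass the stage test. Each is the 250 bases before the annotated start in RefSeq (GRCm38.p6), 5' to 3' on the gene's own strand. They lie at chr9:53536672-53536921 (minus strand), chr9:103305077-103305326 (plus), chr17:29614539-29614788 (plus), chr11:101551956-101552205 (minus) and chr1:71102973-71103222 (minus). Capitals mark every match, on either strand, to CCAAT, to the GC box GGGCGG or to the E2F motif written TTTCGCGC or TTTGGCGC.
Atm: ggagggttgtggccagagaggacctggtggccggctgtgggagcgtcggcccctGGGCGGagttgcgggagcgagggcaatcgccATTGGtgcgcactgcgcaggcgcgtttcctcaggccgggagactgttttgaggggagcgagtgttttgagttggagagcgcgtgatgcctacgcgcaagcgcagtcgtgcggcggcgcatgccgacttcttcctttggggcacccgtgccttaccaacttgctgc
Topbp1: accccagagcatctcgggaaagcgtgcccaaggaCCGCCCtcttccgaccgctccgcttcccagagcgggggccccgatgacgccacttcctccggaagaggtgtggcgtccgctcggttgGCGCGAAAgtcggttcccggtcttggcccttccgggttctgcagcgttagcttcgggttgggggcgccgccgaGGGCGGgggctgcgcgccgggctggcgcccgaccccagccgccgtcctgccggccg
Rnf8: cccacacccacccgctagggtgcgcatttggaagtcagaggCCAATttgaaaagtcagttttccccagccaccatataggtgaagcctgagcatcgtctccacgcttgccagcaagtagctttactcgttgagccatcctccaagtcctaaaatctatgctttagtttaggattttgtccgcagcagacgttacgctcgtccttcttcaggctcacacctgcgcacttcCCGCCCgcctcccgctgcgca
Brca1: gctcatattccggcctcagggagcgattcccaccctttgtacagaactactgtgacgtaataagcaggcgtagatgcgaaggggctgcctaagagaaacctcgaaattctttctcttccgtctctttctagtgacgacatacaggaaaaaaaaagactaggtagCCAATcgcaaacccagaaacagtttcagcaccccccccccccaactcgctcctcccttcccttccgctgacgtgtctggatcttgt
Bard1: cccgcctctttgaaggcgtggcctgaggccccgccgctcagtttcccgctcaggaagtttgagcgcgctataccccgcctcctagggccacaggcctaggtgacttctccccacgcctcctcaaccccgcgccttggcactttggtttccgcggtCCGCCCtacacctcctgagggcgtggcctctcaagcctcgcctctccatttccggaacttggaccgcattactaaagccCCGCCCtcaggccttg

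CCAAT matched at -86 in Brca1, -165 in Atm and -209 in Rnf8, counted from the start, and in 33.8% of all 32851 RefSeq promoters of this length. GGGCGG matched in Atm, in Topbp1 at -216 and -56, in Rnf8 at -21 and in Bard1 at -95 and -16, and in 32.7% of all promoters. The E2F letters matched only in Topbp1, at -129, among the 5 shown, and in 0.654% of all promoters. The cyclic AMP response element TGACGTCA (1.55% of all promoters) did not match in the 5. The GC content was 73.2% in Topbp1, 66% in Atm, 64.8% in Bard1, 54.4% in Rnf8 and 51.2% in Brca1, against a median of 52.4% over all promoters. Of the 8 measured genes, 7 had an entry, and the match letters say nothing of whether a factor binds. Promoters above the median GC content included those of falling genes (Topbp1, Atm and Rnf8) and that of Bard1, which did not pass the stage test. Brca1, which fell, lay below the median.

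Atm, the kinase that responds to double-strand breaks and phosphorylates H2AX at the onset of prophase, had the widest stage difference. Its levels were 9.82 and 10.12 in the 2 C57BL/10J pre-mid arrays and 2.73 and 2.77 in the 2 mid-late arrays. The mid-late values lie under log2 4, where the signal is near background, so the groups are far apart and the lower end has only a background level. Atm fell by 7.22 ± 0.74 (SE) on the log2 scale (limma, adjusted p = 5.5e-05). Carrier pre-mid cells had levels of 9.60, 11.67 and 8.92 (Ttf+/+T43H) and 9.89, 9.43 and 10.17 (t12+/+T43), all above both mid-late arrays. The spread within Ttf+/+T43H was wide (SD 1.43, n = 3), with replicate 2 highest.

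Atrip, the partner that brings ATR to single-stranded DNA, read 8.78 and 9.0 in C57BL/10J pre-mid cells and 6.05 and 6.61 in mid-late cells. It fell by 2.56 ± 0.52 (limma, adjusted p = 0.0027). Carrier cells lay below the pre-mid controls without overlap, at 8.30, 6.80 and 8.41 in Ttf+/+T43H and at 8.57, 7.95 and 8.36 in t12+/+T43. Neither difference from the controls passed the test, at -1.05 ± 0.47 (adjusted p = 0.29) and -0.60 ± 0.47 (0.55). Without Ttf+/+T43H replicate 2, the lowest array, the first was -0.53 (0.3). In the testes Atrip ranged from 4.96 to 5.62, and no comparison of it passed.

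Topbp1, the activator of ATR, read 12.79 and 13.18 in C57BL/10J pre-mid cells and 10.19 and 10.22 in mid-late cells. It fell by 2.78 ± 0.41 (limma, adjusted p = 0.00043), and stayed far above log2 4 on every array. Both carriers overlapped the pre-mid controls, at 13.50, 12.83 and 13.74 (Ttf+/+T43H) and 13.70, 12.76 and 13.70 (t12+/+T43). For Topbp1 and Atm the mid-late cells had the lowest level of the 7 groups. The means of the other 6 groups ran from 12.13 to 13.39 for Topbp1 and from 9.35 to 10.06 for Atm.

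H2ax, the histone variant whose phosphorylated form marks silenced chromatin, read 12.86 and 12.97 in C57BL/10J pre-mid cells and 10.57 and 10.43 in mid-late cells. It fell by 2.41 ± 0.85 (limma, adjusted p = 0.037). In Ttf+/+T43H replicate 2 read 10.45 against 13.04 and 13.42 in the other 2 arrays, and lay within the mid-late range. The t12+/+T43 arrays read 13.39, 12.36 and 13.15. The call was lost when any 1 of the 4 C57BL/10J arrays was left out (adjusted p 0.11 to 0.13), with no filter (0.059) and with medians centred (0.052), and it was kept without Ttf+/+T43H replicate 2 and t12+/+T43 replicate 3 together (0.00084).

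Rnf8, the ligase that adds ubiquitin to the marked chromatin, read 10.31 and 10.81 in C57BL/10J pre-mid cells and 8.88 and 8.69 in mid-late cells. It fell by 1.78 ± 0.28 (limma, adjusted p = 0.00061). Brca1, the ligase and axis protein that brings ATR to unsynapsed axes, read 6.32 and 6.52 in pre-mid cells and 2.96 and 3.03 in mid-late cells. Brca1 fell by 3.42 ± 0.23 (5.4e-06), to a level under log2 4. Bard1, the partner of BRCA1 in that ligase, read 8.19 and 8.06 in pre-mid cells and 7.74 and 8.05 in mid-late cells. These 2 groups of Bard1 nearly touched, and its difference was -0.23 ± 0.43 (0.69), beside the fall of its partner. The difference between the 2 genes was not tested.

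Chek1, the effector kinase downstream of ATR, read 7.46 and 7.66 in C57BL/10J pre-mid cells and 5.99 and 5.61 in mid-late cells. It fell by 1.76 ± 0.58 (limma, adjusted p = 0.028). The call was lost without any 1 of the 4 arrays (adjusted p 0.07 to 0.13), under quantile normalization (-1.15, 0.15) and with array medians centred (-1.48, 0.056). The scaling bears on all stage differences: the median over all genes was -0.11 as deposited and 0.18 with medians centred. Under both scalings Brca1, Atm, Atrip, Topbp1, Rnf8, H2ax and Chek1 stayed below 0, and Bard1 moved to 0.05.

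**Figure D1:**
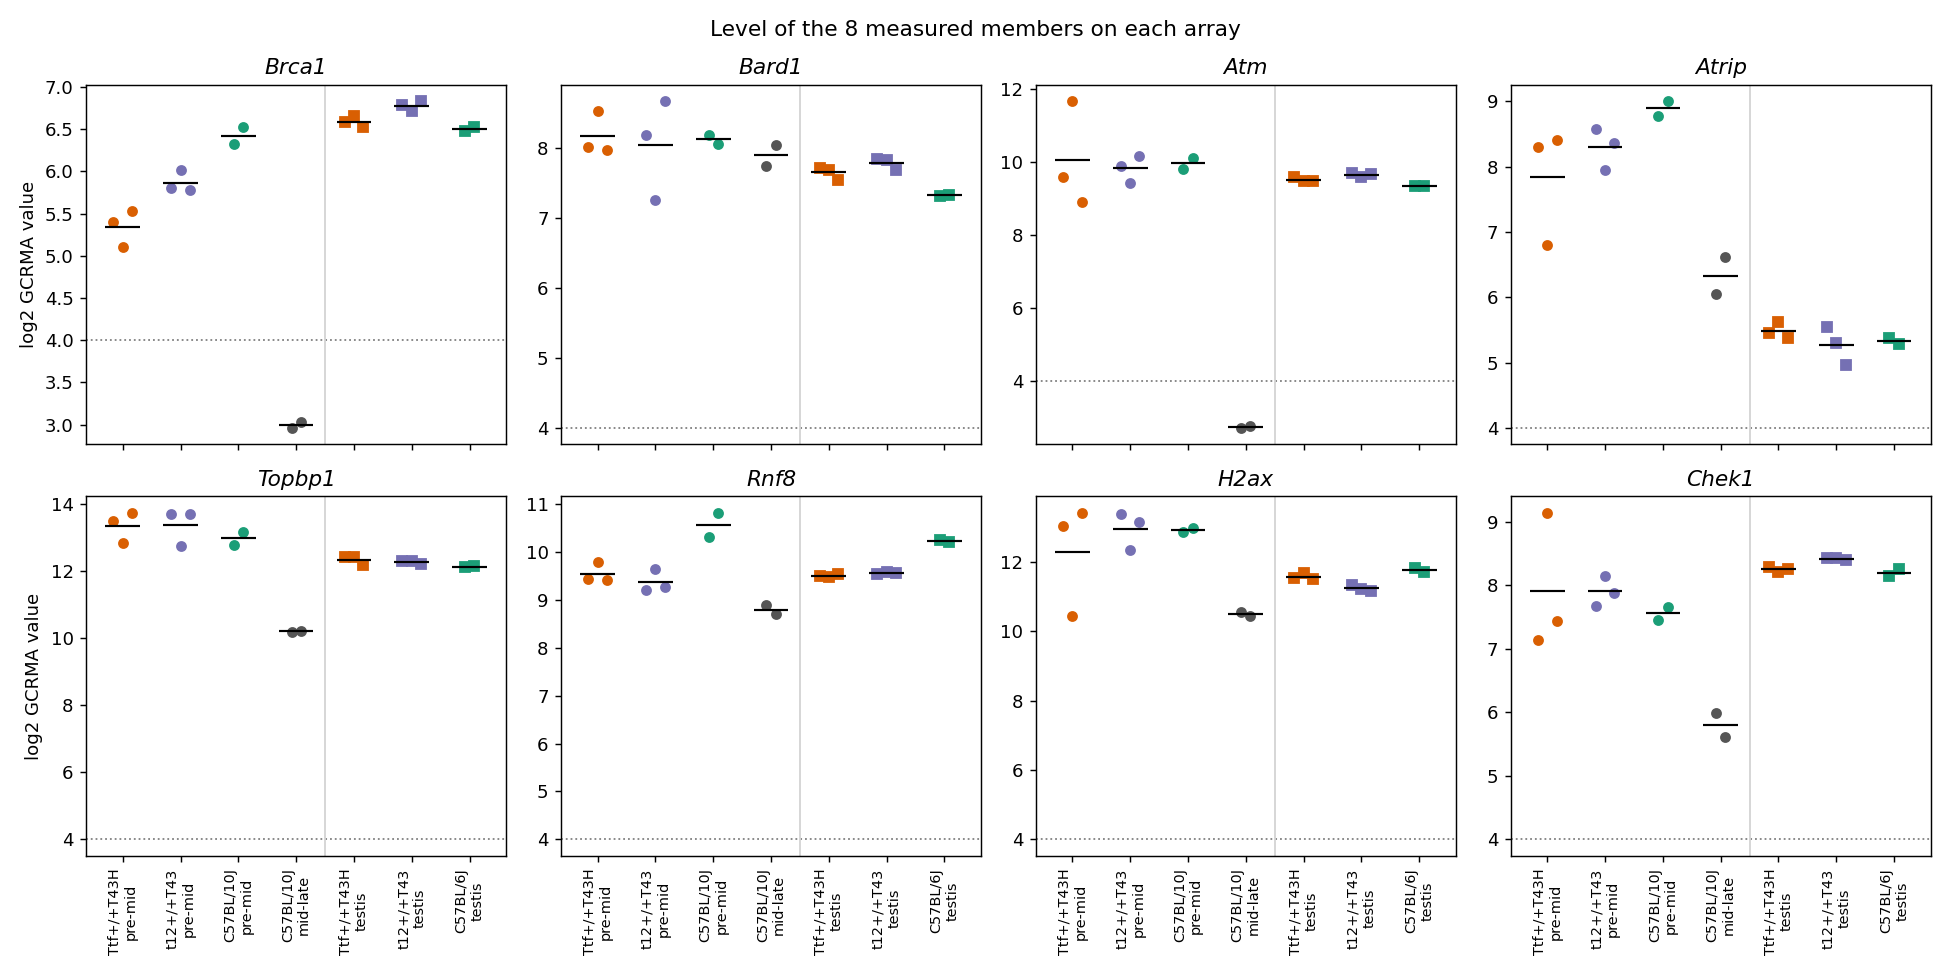
Level of each of the 8 genes on every array, as log2 GCRMA values on an axis of its own for each gene, with circles for sorted cells, squares for 15-day testes and a bar at each group mean. The dotted line is the filter level of log2 4, and Brca1 and Atm lie under it in the 2 mid-late arrays (2.96 and 3.03, 2.73 and 2.77).

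The sorted populations differed in marker genes over the same comparison. The mean of 5 leptotene and zygotene markers was 11.85 to 11.92 in C57BL/10J pre-mid cells and 7.94 to 8.21 in mid-late cells, and the mean of 6 spermatogonial markers was 6.44 to 6.99 and 3.05 to 3.29. The mean of 8 mid-late-pachytene markers ran the other way, from 10.97 to 11.22 in pre-mid cells to 13.02 to 13.14 in mid-late cells. Markers of round and elongating spermatids (9 genes) averaged 11.54 to 12.19 in the pre-mid arrays and 8.88 to 9.57 in the mid-late arrays. Sertoli cell markers and peritubular and endothelial markers were lower at the later stage too. Of 5 Leydig cell markers 1 fell (median difference -0.78). Of 2 tested macrophage markers 1 rose (1.04), and that list averaged 2.45 to 2.57 in pre-mid and 2.94 to 3.0 in mid-late cells. The mean of 9 Sertoli cell markers was 5.46 to 5.62 in pre-mid and 3.5 to 3.76 in mid-late cells, with 5 of 6 tested genes falling (median difference -3.02). Of 6 peritubular and endothelial markers, with means of 4.89 to 5.52 and 4.14 to 4.28, 2 of 3 tested genes fell (-2.92), and Cnn1, Pecam1 and Cdh5 were under log2 4 on all sorted arrays. The difference between 3' and 5' actin probe sets was 2.49 to 2.51 in the pre-mid and 3.38 to 3.51 in the mid-late arrays, without overlap. The part of these cells and of RNA quality in the stage differences of the 8 genes was not tested. In bulk RNA, fewer cells of a type and less RNA per cell cannot be told apart.

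Carrier pre-mid cells had a higher level than C57BL/10J mid-late cells for most of the 8 genes. In Ttf+/+T43H 6 genes were higher (31.7% of all genes were, and 60.3% were called in either direction): Brca1 by 2.35, Atm by 7.31, Atrip by 1.51, Topbp1 by 3.15, Rnf8 by 0.75 and Chek1 by 2.10 on the log2 scale. In t12+/+T43 6 genes were higher (34.2% of all genes, and 64.4% in either direction): Brca1 by 2.87, Atm by 7.08, Atrip by 1.96, Topbp1 by 3.19, H2ax by 2.47 and Chek1 by 2.11. No gene was called lower in either comparison, and adjusted p (limma) ran from 5.7e-06 to 0.03. H2ax in Ttf+/+T43H was 1.80 higher without passing (0.072), with replicate 2 inside the mid-late range, and 2.73 higher without that replicate (0.00023). Rnf8 in Ttf+/+T43H lost its call without replicate 2 (0.62, adjusted p = 0.055) and with medians centred (0.45, 0.21). Atrip in Ttf+/+T43H lost its call under quantile normalization (0.94, 0.13). Leaving out 1 array ended further calls: Atrip and Rnf8 in Ttf+/+T43H without its replicate 1 or mid-late replicate 1, Atrip also without replicate 3, Rnf8 and Chek1 without mid-late replicate 2, and in t12+/+T43 H2ax without replicate 1 or 3 or either mid-late array, Atrip without mid-late replicate 1 and Chek1 without mid-late replicate 2. Group ranges did not overlap for 6 of the 8 genes in Ttf+/+T43H (75% of all genes) and for 7 in t12+/+T43 (79.9%). Both comparisons share the 2 mid-late arrays with the stage comparison above.

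Other cell types moved with these comparisons. Of 6 tested Sertoli cell markers 5 rose in each carrier against mid-late cells (median difference 4.62 in Ttf+/+T43H and 5.55 in t12+/+T43). Of 5 Leydig cell markers 3 and 5 rose (4.89 and 6.20), from mid-late means of 3.20 to 3.75, where Cyp11a1, Cyp17a1 and Ptgds were under log2 4. Of 6 spermatogonial markers 5 rose in each (4.02 and 3.46), and of 5 leptotene and zygotene markers 4 rose in each (3.75 and 3.43). Of 8 mid-late-pachytene markers 5 and 6 fell (-2.13 and -3.22). Of 9 spermatid markers 2 rose in Ttf+/+T43H (1.14), and 8 fell in t12+/+T43 (-3.12). The part of these cells in the differences of the 8 genes was not tested.

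Between carrier and C57BL/10J pre-mid cells, 1 of the 8 genes fell in each carrier. In Ttf+/+T43H that gene was Brca1, which read 5.40, 5.10 and 5.53 against 6.32 and 6.52 in the controls. All 3 carrier arrays lay below both controls, and the fall was 1.08 ± 0.21 (limma, adjusted p = 0.046, n = 3 and 2). In t12+/+T43 Brca1 read 5.80, 6.02 and 5.78, also below both controls, with a difference of -0.56 ± 0.21 that did not pass (0.16). Over all genes 2.06% were called in Ttf+/+T43H, 1.47% lower, and 9.07% in t12+/+T43, 5.83% lower.

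In t12+/+T43 the gene that fell was Rnf8, which read 9.21, 9.64 and 9.27 against 10.31 and 10.81 in the C57BL/10J controls. All 3 lay below both controls, and the fall was 1.19 ± 0.25 (limma, adjusted p = 0.021, n = 3 and 2). In Ttf+/+T43H Rnf8 read 9.43, 9.78 and 9.40, likewise below both controls, with a difference of -1.03 ± 0.25 that did not pass (0.078). Without Ttf+/+T43H replicate 2 that difference was -1.15 and passed (0.048). Brca1 and Rnf8 were thus below the controls on all 6 carrier arrays, and the carriers share those 2 control arrays.

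Both calls rest on few arrays. The Brca1 call in Ttf+/+T43H was kept without replicate 2 (-0.95, adjusted p = 0.042) and lost without replicate 1 (-1.10, 0.15), replicate 3 (-1.17, 0.066) or either C57BL/10J array (-1.17, 0.32, and -0.98, 0.34). It was also lost with medians centred (-1.09, 0.061). The Rnf8 call in t12+/+T43 was kept without replicate 2 (-1.33, 0.011) and lost without replicate 1 (-1.11, 0.069), replicate 3 (-1.14, 0.063) or either C57BL/10J array (-1.44, 0.085, and -0.94, 0.21).

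The other 6 genes were not called in either carrier. Group ranges did not overlap for 3 of the 8 genes in Ttf+/+T43H (41.3% of all genes) and for 4 in t12+/+T43 (46.8%). These were Brca1, Atrip and Rnf8 in both, and Chek1 in t12+/+T43, where 7.68, 8.15 and 7.88 lay above the controls' 7.46 and 7.66. Chek1 read 7.14, 9.14 and 7.43 in Ttf+/+T43H, with replicate 2 above all other sorted arrays. Bard1, the partner of Brca1, read 8.01, 8.53 and 7.97 in Ttf+/+T43H and 8.19, 7.26 and 8.67 in t12+/+T43, on both sides of the controls. Its differences were 0.04 ± 0.39 and -0.09 ± 0.39, beside the Brca1 fall. For H2ax the differences were -0.61 ± 0.77 and 0.06 ± 0.77, and without Ttf+/+T43H replicate 2 the first was 0.32 (adjusted p = 0.65).

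Marker levels also moved with the carrier groups. The mean of 9 Sertoli cell markers was 6.19 to 6.59 in Ttf+/+T43H, 6.72 to 7.58 in t12+/+T43 and 5.46 to 5.62 in C57BL/10J pre-mid cells, with Amh, Dhh and Fshr under log2 4 on every one of these arrays. The mean of 5 Leydig cell markers was 6.93 to 8.31, 8.03 to 10.61 and 4.0 to 5.80, with none of the 5 under log2 4 on all arrays of these groups. The spermatid list averaged 10.03 to 10.45 in Ttf+/+T43H and 5.77 to 7.86 in t12+/+T43, below the controls' 11.54 to 12.19. In t12+/+T43 5 of 6 tested Sertoli cell markers and 2 of 5 Leydig cell markers rose, and 8 of 9 spermatid markers fell. In Ttf+/+T43H 0 Sertoli and 0 Leydig cell markers were called, and 1 spermatid marker fell. Of 8 mid-late-pachytene markers 1 rose in Ttf+/+T43H and 2 fell in t12+/+T43. Of 3 tested peritubular and endothelial markers 1 fell in each carrier. At least 4 of 5 macrophage markers lay under log2 4. The 5 leptotene and zygotene markers averaged 11.30 to 11.65 in Ttf+/+T43H, 11.21 to 11.93 in t12+/+T43 and 11.85 to 11.92 in the controls. Their median differences were -0.77 and -0.47, and none of the 5 was called. The 6 spermatogonial markers averaged 6.58 to 9.62, 6.68 to 7.69 and 6.44 to 6.99 (median differences 1.19 and 0.58, none called). Both 3' to 5' differences were higher on all 6 carrier arrays than on the 2 controls. The part of these cells and of RNA quality in the differences of Brca1 and Rnf8 was not tested.

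Between the carriers limma called 0 of the 8 genes in sorted cells, beside 0.755% of all genes. At an unadjusted p under 0.05 stood 1 of the 8 genes, beside 987 of all 9666 genes. That gene was Brca1, 0.52 ± 0.19 higher in t12+/+T43 (limma, adjusted p = 0.36). Its 3 arrays in t12+/+T43 lay above the 3 in Ttf+/+T43H, the only one of the 8 genes without overlap there (11.9% of all genes). Brca1 therefore ordered as C57BL/10J, t12+/+T43, Ttf+/+T43H, mid-late, with no overlap between neighbours, and the step between the carriers did not pass the test.

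**Figure D2:**
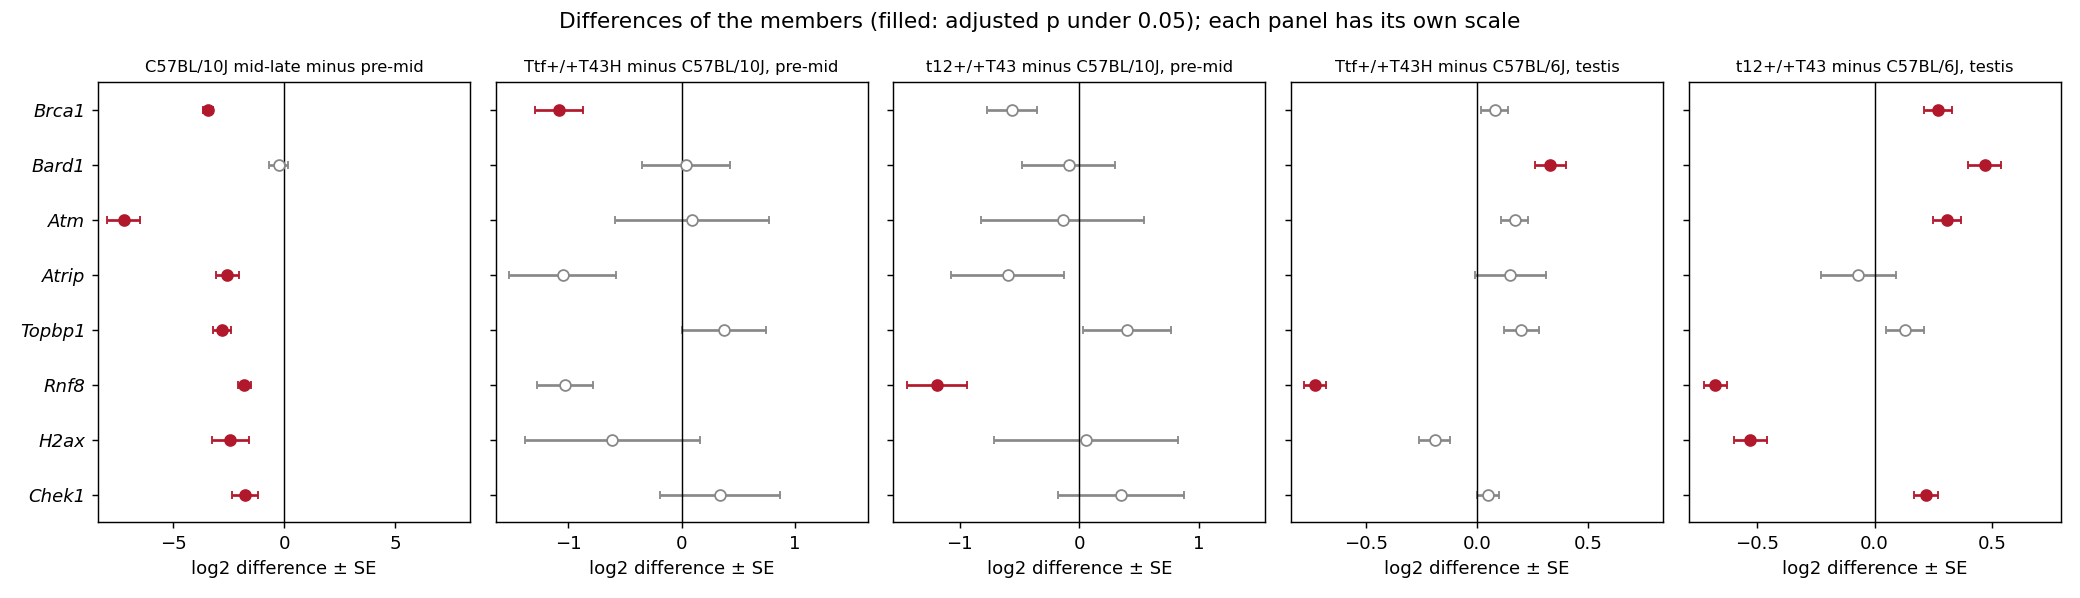
Difference of each of the 8 genes in 5 comparisons, as log2 first minus second group with limma's standard error, filled where the adjusted p is under 0.05. Each panel has its own scale. At the later stage all 8 genes lie below 0, and 7 of them are filled. One filled point stands in each sorted carrier panel (Brca1 in Ttf+/+T43H, Rnf8 in t12+/+T43), and Rnf8 is filled on the left in both testis panels.

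In 15-day testes 6 of the 8 genes were called in t12+/+T43 against C57BL/6J (21.8% of all genes) and 2 in Ttf+/+T43H (8.56%), 1 higher (3.86%) and 1 lower (4.7%). Rnf8 fell in both. It read 9.49, 9.47 and 9.54 in Ttf+/+T43H, 9.53, 9.57 and 9.56 in t12+/+T43, and 10.25 and 10.21 in C57BL/6J. The carrier arrays lie within 0.10 of each other, far below the controls beside a replicate SD of 0.02 to 0.032. The falls were 0.73 ± 0.05 (limma, adjusted p = 0.00018) and 0.68 ± 0.05 (0.00024), and both calls were kept without any 1 array. In 1 fit of all 18 arrays, whose spread is shared with the sorted cells, no testis call of the 8 genes passed, and the adjusted p of Rnf8 was 0.1 and 0.081.

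Bard1 rose in both carriers, from 7.32 and 7.33 in C57BL/6J to 7.72, 7.69 and 7.55 in Ttf+/+T43H and 7.85, 7.83 and 7.69 in t12+/+T43. All 6 carrier arrays lay above both controls. The rises were 0.33 ± 0.07 (limma, adjusted p = 0.037) and 0.47 ± 0.07 (0.006). The first was lost without Ttf+/+T43H replicate 1 or 2 or either C57BL/6J array (adjusted p up to 0.18), and the second without C57BL/6J replicate 1 (0.051). The direction of Bard1 in the testes is not that of Rnf8, and its partner Brca1 rose in t12+/+T43 as well.

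In t12+/+T43 testes 4 genes rose (10.5% of all genes): Bard1, Brca1, Atm and Chek1. Brca1 read 6.78, 6.71 and 6.83 against 6.48 and 6.52, a rise of 0.27 ± 0.06 (limma, adjusted p = 0.019). Atm read 9.71, 9.61 and 9.67 against 9.36 and 9.34, a rise of 0.31 ± 0.06 (0.012). Chek1 read 8.43, 8.43 and 8.40 against 8.14 and 8.26, a rise of 0.22 ± 0.05 (0.027). Each of these 3 groups lay wholly above its controls, by less than 1 log2 unit. Leaving out 1 array ended the Brca1 call in 3 of 5 cases (t12+/+T43 replicate 1, either C57BL/6J array), the Atm call without either C57BL/6J array and the Chek1 call without t12+/+T43 replicate 1 or 2 or C57BL/6J replicate 1.

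In the same testes 2 genes fell (11.3% of all genes), Rnf8 and H2ax. H2ax read 11.34, 11.23 and 11.17 in t12+/+T43 against 11.83 and 11.72 in C57BL/6J, a fall of 0.53 ± 0.07 (limma, adjusted p = 0.0041), and kept its call without any 1 array. In Ttf+/+T43H it read 11.54, 11.67 and 11.52, also below the controls, with a difference of -0.19 ± 0.07 that did not pass (0.16). H2ax was the one gene called between the carriers, 0.33 ± 0.07 lower in t12+/+T43 (log2 difference -0.33, adjusted p = 0.041, 4.99% of all genes called, 3.92% lower). That call was lost in 4 of the 6 fits that left out 1 array, those without Ttf+/+T43H replicate 1 or 2 or t12+/+T43 replicate 2 or 3.

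Topbp1 and Atrip were not called in the testes. Topbp1 lay at 12.12 and 12.15 in C57BL/6J, 12.41, 12.43 and 12.17 in Ttf+/+T43H and 12.30, 12.29 and 12.20 in t12+/+T43, above the controls on all 6 arrays (0.20 ± 0.08, limma adjusted p = 0.18, and 0.13 ± 0.08, 0.3). For Chek1 in Ttf+/+T43H the difference was 0.05 ± 0.05 (0.61) and for Brca1 0.08 ± 0.06 (0.43). Ranges did not overlap with the controls for 7 of 8 genes in each carrier (44.3% and 56.9% of all genes), and for 4 of 8 between the carriers (30.9%). Marker levels in testes also moved with the groups. The mean of the 8 mid-late-pachytene markers was 7.41 to 8.05 in Ttf+/+T43H, 6.80 to 7.27 in t12+/+T43 and 8.11 to 8.32 in C57BL/6J, and of its 6 tested genes 2 fell in Ttf+/+T43H (median difference -0.17) and 5 in t12+/+T43 (-1.56). Its genes Ccna1, Pgk2, Spag6 and Tcp11 were under log2 4 on all carrier testis arrays, and Ccna1 and Spag6 in C57BL/6J as well. The Sertoli list averaged 9.22 to 9.40 in Ttf+/+T43H, 9.36 to 9.57 in t12+/+T43 and 9.26 to 9.27 in C57BL/6J, and 2 of its 8 tested genes rose in t12+/+T43. The Leydig list averaged 4.41 to 7.56, 4.99 to 7.60 and 7.43 to 8.21, and 1 of its 4 tested genes fell in each carrier. Of 6 spermatogonial markers 2 rose in t12+/+T43 and 0 in Ttf+/+T43H. Of 5 leptotene and zygotene markers 1 rose in each carrier, and of 5 macrophage markers 1 fell in each. The part of these cells in the differences of the 8 genes was not tested.

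Of the 8 genes Brca1 was the one whose carrier difference itself differed between the tissues. In Ttf+/+T43H it was -1.08 in sorted cells and 0.08 in testes, and in t12+/+T43 it was -0.56 and 0.27. The difference of these differences was -1.16 ± 0.20 in Ttf+/+T43H (limma on 18 arrays, adjusted p = 0.0057, 3.54% of all genes called, 2.38% lower) and -0.83 ± 0.20 in t12+/+T43 (0.018, 8.15% called, 5.08% lower). This test was chosen after the values had been seen, and the control strain, the age and the cell mixture differ between the tissues along with it. The fit of 18 arrays shares 1 spread between sorted cells and the less variable testes. In the fit of sorted cells alone the Brca1 differences had an SE of 0.21, above the 0.20 here. The error between tissues may thus be too small, and its p-values too low. For Rnf8 the same test gave -0.30 (adjusted p = 0.6) and -0.52 (0.26), with the gene below its controls in both tissues. Whether the carriers' difference from each other changed between the tissues was also tested: limma called 0 of the 8 genes (0.734% of all genes). At an unadjusted p under 0.05 stood 0 of the 8, beside 812 of all 10623 genes.

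The order of the 7 groups differed from gene to gene. Mid-late cells came last for Brca1, Atm, Topbp1, Rnf8, H2ax and Chek1, with no overlap with the group above in each. For Atrip the 3 testis groups were lowest (means 5.27 to 5.48), under the mid-late cells at 6.33, and the C57BL/10J pre-mid cells were highest. For Bard1 all neighbours in the order overlapped except the last pair, Ttf+/+T43H testes above C57BL/6J testes. For Rnf8 the 2 control groups, C57BL/10J pre-mid cells (10.56) and C57BL/6J testes (10.23), were the highest, and the 4 carrier groups (9.37 to 9.55) overlapped one another in order, with no overlap with C57BL/6J testes above or the mid-late cells below. Brca1 and Chek1 were highest in the testes of t12+/+T43, and H2ax and Topbp1 in sorted pre-mid cells. Sorted cells and testes were compared here as levels within a gene, without a test.

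Rnf8 lies on proximal chromosome 17, the chromosome that t12 and T43H alter, and the 7 remaining genes lie elsewhere. Of these, Atm, Atrip, Topbp1, H2ax and Chek1 are on chromosome 9, Brca1 is on 11 and Bard1 on 1. The share of genes that fell on proximal chromosome 17, up to the gene Esp38, was 6.16% in Ttf+/+T43H and 20.3% in t12+/+T43 sorted cells, and 27.7% and 38.3% in testes. On autosomes other than 16 and 17 it was 1.29%, 5.28%, 3.93% and 10.6% in the same order. Chromosome 9, with 5 of the 8 genes, had 30.2% of its genes falling between pre-mid and mid-late cells and a median difference of -0.01, against 29% and -0.06 on autosomes other than 16 and 17.

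The 20 tested genes nearest to Rnf8, 10 on each side, were read beside it. In sorted cells 1 fell in Ttf+/+T43H and 2 in t12+/+T43, with no rise. In testes 6 fell and 1 rose in Ttf+/+T43H, and 7 fell and 1 rose in t12+/+T43. Rsph1, which encodes a radial spoke protein of cilia and flagella, fell in all 4 comparisons, by 2.11 and 2.53 in sorted cells and 1.71 and 2.88 in testes. Its call in Ttf+/+T43H sorted cells was lost without C57BL/10J pre-mid replicate 1. Glo1, a glyoxalase gene, rose by 1.22 and 1.07 in testes. Dnah8, an axonemal dynein heavy chain gene, fell by 3.14 in t12+/+T43 testes and was -0.50 in Ttf+/+T43H testes without passing. The carriers' own sequence under the Rnf8 probes was not used here, so less transcript and weaker hybridization cannot be told apart.

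**Figure D3:**
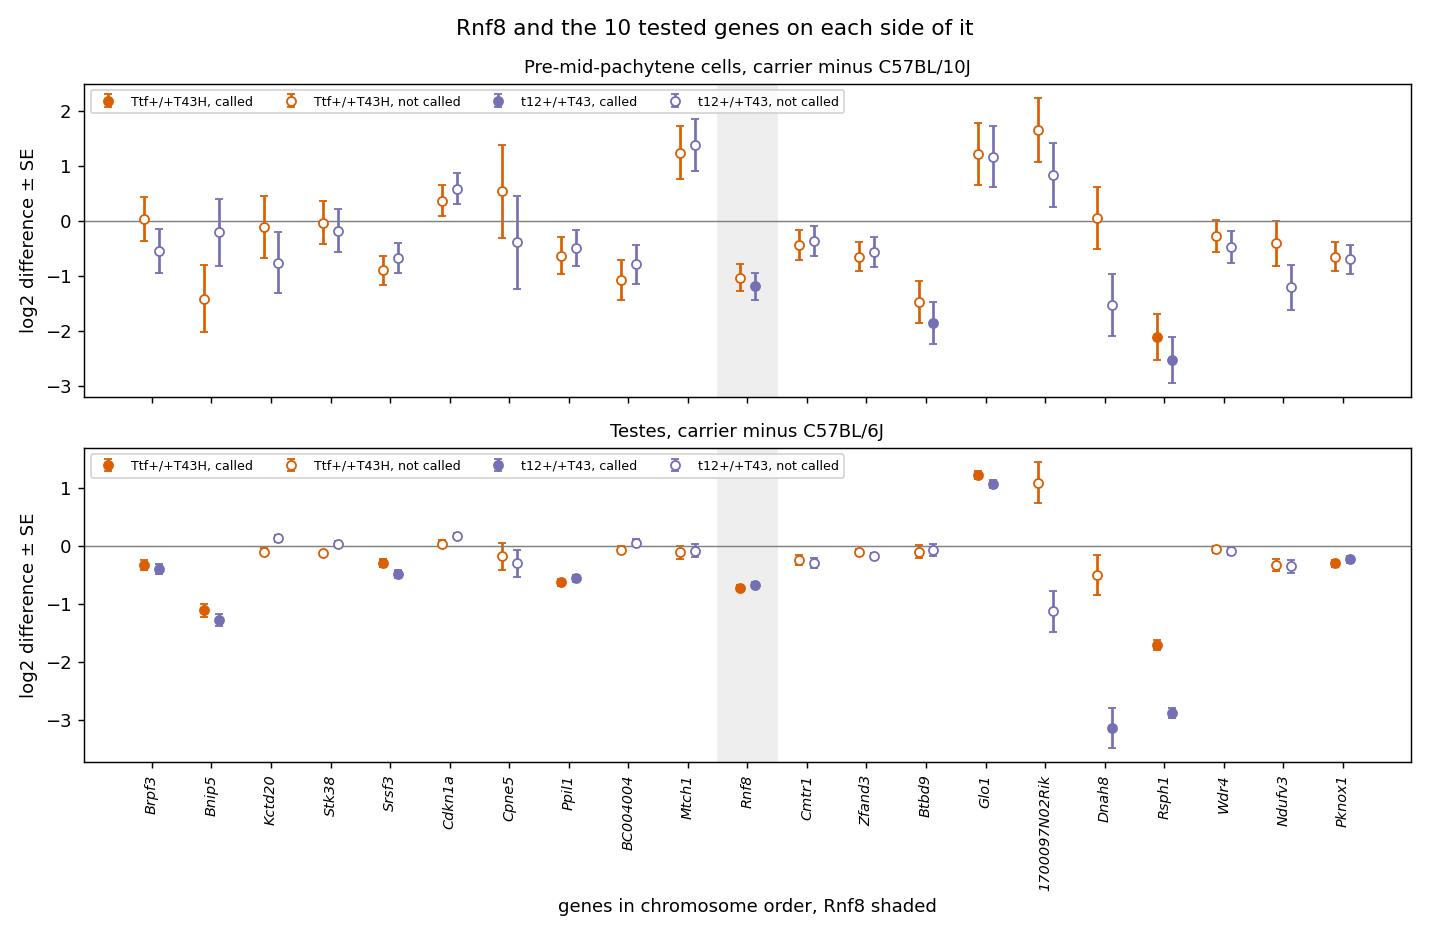
Differences of Rnf8 (shaded) and of the 10 tested genes on each side of it, in chromosome order, as log2 carrier minus control with limma's standard error, for sorted pre-mid cells (upper panel) and testes (lower panel), filled where the adjusted p is under 0.05. Rnf8 and Rsph1 lie below 0 in every comparison, Glo1 lies above 0, and most neighbours are not called in sorted cells.

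The other genes of the pathway were read from lists of 71 genes, of which 61 were on the array and 57 were tested in sorted cells. Between C57BL/10J pre-mid and mid-late cells 22 fell, 12 rose and 23 did not pass, with a median of -0.41, beside 30.3% falling and 26.2% rising over all genes. The kinase, sensor and mediator genes other than the 8 gave 5 falls and 3 rises of 14, the 9-1-1 clamp and its loader 3 and 1 of 6, and the ubiquitin and BRCA1-A branch 5 and 1 of 12. The Fanconi anaemia genes gave 2 falls and 4 rises of 11, the axis genes 2 falls of 2, and the chromatin writers and readers 5 falls and 3 rises of 12. These lists, apart from the axis genes, moved in both directions, while the 8 genes gave 7 falls and no rise.

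Within the pathway lists, not over all genes, the smallest p-values of the stage comparison belonged to 6 genes. Palb2, which links BRCA1 to BRCA2, fell by 5.03 ± 0.36 (limma, adjusted p = 6.9e-06), from 8.77 to 3.74. Uimc1, which encodes RAP80, the ubiquitin reader of the BRCA1-A complex, fell by 3.45 ± 0.34 (4.6e-05). Rpa2, a subunit of the single-strand binding protein, fell by 4.01 ± 0.34 (1.9e-05), and Tipin, which acts with Timeless at replication forks, fell by 6.13 ± 0.54 (2.3e-05). Scml2, an X-linked Polycomb-related gene, fell by 8.13 ± 0.55 (5.4e-06). Slx4, the scaffold of structure-specific nucleases, rose by 3.93 ± 0.30 (1e-05), from 6.71 to 10.64.

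In carrier sorted cells 1 of the 57 pathway genes was called, the same gene in both, beside 2.06% of all genes in Ttf+/+T43H and 9.07% in t12+/+T43. Dot1l, the H3K79 methyltransferase, rose by 1.79 ± 0.29 in Ttf+/+T43H (limma, adjusted p = 0.022) and by 1.51 ± 0.29 in t12+/+T43 (0.014), against the same 2 control arrays. The Ttf+/+T43H call of Dot1l was lost without C57BL/10J pre-mid replicate 1. Between the carriers limma called 0 of the 57 genes, with 1 at an unadjusted p under 0.05, beside 987 of all 9666 genes. Mdc1, the mediator that binds phosphorylated H2AX and that also lies on chromosome 17, was 0.31 ± 0.26 and -0.11 ± 0.26 from the controls, neither called. In testes Mdc1 was called lower in t12+/+T43, by 0.75 ± 0.15 (limma, adjusted p = 0.015). Its difference in Ttf+/+T43H testes was -0.48 ± 0.15 and did not pass (0.1).

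In testes 55 pathway genes were tested. Ttf+/+T43H had 3 rises and 5 falls, beside 8.56% of all genes called, and t12+/+T43 had 8 rises and 9 falls, beside 21.8%. Brip1, a helicase that binds BRCA1, rose by 0.71 ± 0.08 (limma, adjusted p = 0.0043) and 0.99 ± 0.08 (0.00067). Slx4, which lies on chromosome 16, a chromosome of the translocation, fell by 0.49 ± 0.06 (0.0038) and 0.55 ± 0.06 (0.0013). Babam2, a BRCA1-A subunit, fell by 0.42 ± 0.07 (0.017) and 0.47 ± 0.07 (0.0057). Rpa2 fell by 0.48 and 0.39, Rad1, a subunit of the 9-1-1 clamp, fell by 0.26 (0.029) and 0.36 (0.0049), and Ube2t, the Fanconi ubiquitin-conjugating enzyme, rose by 0.48 and 0.32. Etaa1, another activator of ATR, fell by 0.23 in Ttf+/+T43H and was -0.02 in t12+/+T43 without passing. The X-linked genes Ube2a and Scml2 rose by 0.36 and 0.43 in t12+/+T43 and were 0.20 and 0.18 in Ttf+/+T43H without passing. Between the carriers Fancl was 0.41 lower in t12+/+T43 (log2 difference -0.41) and Etaa1 0.21 higher, and no other pathway gene was called.

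**Figure D4:**
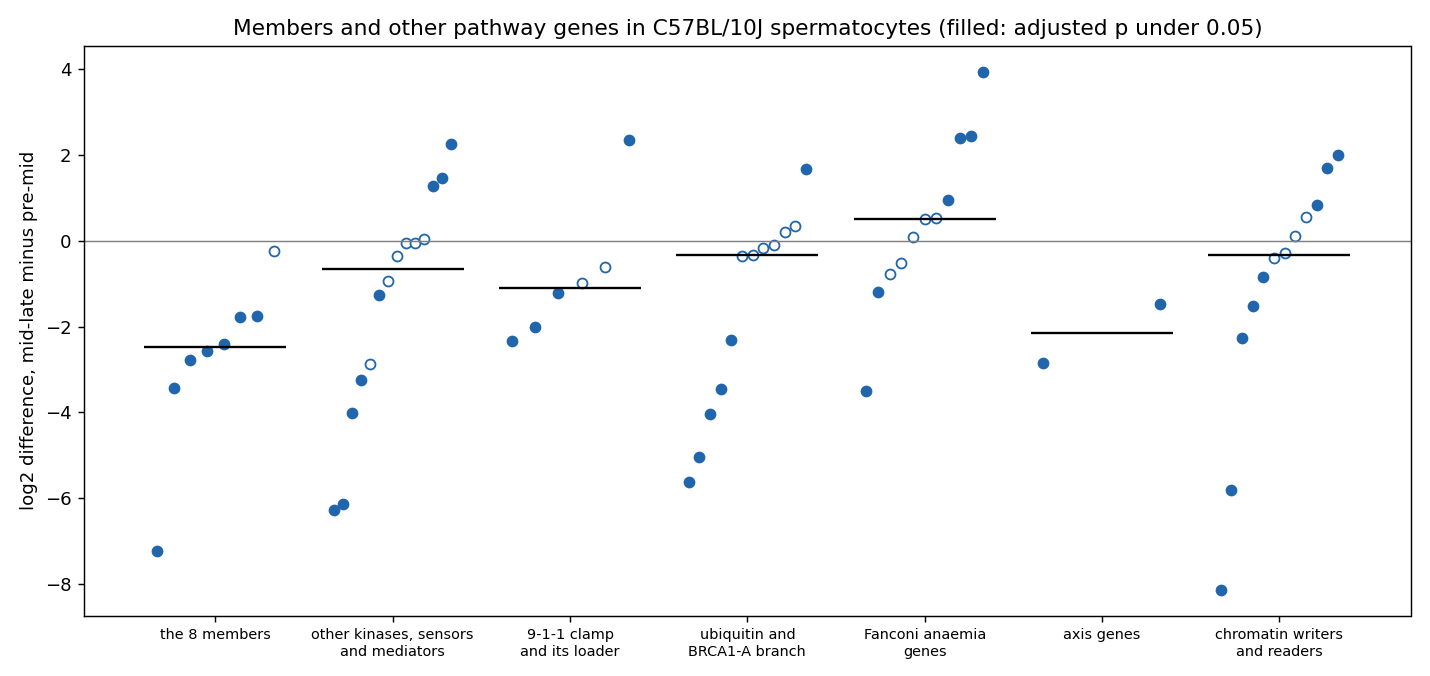
Difference between C57BL/10J mid-late and pre-mid cells for the 8 genes and for the other pathway genes in 6 lists, as log2 late minus pre, 1 point a gene with a bar at the median of each list, filled where limma's adjusted p is under 0.05. The 8 genes all lie below 0 with a median of -2.49, and the other lists, apart from the 2 axis genes, hold points on both sides of 0.

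For each of the 8 genes, the 2 genes with the highest Pearson r over the 10 sorted arrays were recorded as a description. The arrays come from 4 groups and are not independent points. Brca1 was most like Ttc27 (r = 0.999) and Palb2 (0.995), and over the 8 pre-mid arrays these were 0.99 and 0.96. Atm was most like Ccna2 (0.999) and Mcm4 (0.998), Topbp1 like Mrpl58 (0.998) and Strn3 (0.997), and Atrip like Sec61a2 (0.991) and Ubap2l (0.983). H2ax was most like St7 (0.990) and Cep44 (0.986), and Chek1 like Gm9 (0.992) and Pdzrn3 (0.986). The highest values were lower for Rnf8, with Phf5a (0.954) and Nbr1 (0.953), and for Bard1, with Pgam5 (0.945) and Bcas3 (0.929). The 8 genes themselves were left out of this ranking, so it does not show how alike they were to each other.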

How the data were processed

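RNA of 18 samples was hybridised to 1-colour Affymetrix arrays after 2 cycles of labelling from 20 to 30 ng of RNA, per the labels' protocols. The values are log2 expression values that the authors deposited, made with GCRMA per the submitters' processing notes. The version of GCRMA, any filter, the build and the set of arrays normalized together are not given in these sources. GCRMA sets dim probe sets by a background model, so differences from levels under log2 4 are less certain in size. Of 16539 probe sets, 15780 carry 1 gene symbol, and the 759 without a symbol were left out of every test. Names, chromosomes, gene order and promoters came from RefSeq tables (GRCm38.p6).

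Groups came from the sample titles. Values were used as deposited. Genes with at least 2 arrays at log2 4 or more were fitted with limma 3.58.1 in R 4.3.3 (lmFit, 1 mean per group, eBayes), separately for the 10 sorted arrays (9666 genes), the 8 testis arrays (9134) and all 18 (10623) for differences between tissues. Tests were two-sided, with Benjamini-Hochberg adjustment across every gene in the comparison, and called at an adjusted p under 0.05. The fit was tested on simulated data with known changes in 200 genes. Arrays give no read depth, and their number limits the precision. The genes and lists were chosen with earlier results of these data known. The 8 measured genes were always named, other pathway genes were named by smallest p (at most 6 called per comparison), and Mdc1 and the neighbours of Rnf8 were named after their values were seen. Same-numbered Ttf+/+T43H and t12+/+T43 arrays did not deviate together in every pair, so no replicate block was used. Alternatives were no filter, a filter at log2 6, quantile normalization, centred array medians, an intensity trend in eBayes, a replicate block, 1 fit of all 18 arrays and leaving out each array. Added after seeing the data were the fit without Ttf+/+T43H replicate 2 and t12+/+T43 replicate 3 together and the tests of carrier differences between tissues.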

Additional observations from a re-analysis of the deposited data

Results flagged for a closer look

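The carrier difference of Brca1 differed between sorted cells and 15-day testes, by a test of that difference in 1 limma fit of 18 arrays. That fit shares 1 spread between sorted cells and the less variable testes, so its errors may be too small and its p-values too low. In Ttf+/+T43H the difference between tissues was -1.16 ± 0.20 (adjusted p = 0.0057). There Brca1 lay below C57BL/10J in sorted cells on 3 of 3 arrays and above the C57BL/6J mean in testes on 3 of 3. The testis difference itself, 0.08 ± 0.06, did not pass (limma, adjusted p = 0.43). In t12+/+T43 the difference between tissues was -0.83 ± 0.20 (adjusted p = 0.018), with 3 of 3 arrays below in sorted cells and 3 of 3 above in testes. The sorted difference itself, -0.56 ± 0.21, did not pass (0.16). Both tests were chosen after the values had been seen, and control strain, age and cell mixture differ with the tissue and cannot be told apart from it. The first was kept in 16 of 17 alternatives and lost with a replicate block (-1.18, adjusted p = 0.051). The second was kept in 13 of 17 and lost with a replicate block (-0.86, 0.079) and without C57BL/10J pre-mid replicate 2 or either C57BL/6J array, with adjusted p up to 0.092.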

How the results depend on the processing

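Over 1341 alternatives for single genes among the 8, 1251 kept the side of the threshold, 77 lost a call, 13 gained one and 0 reversed a called direction. The calls of Brca1, Atm, Atrip, Topbp1 and Rnf8 between C57BL/10J stages were kept in all 12 alternatives. The number of the 8 genes called against C57BL/10J pre-mid cells was 1 in Ttf+/+T43H and became 0 with a filter at log2 6, with medians centred and with an intensity trend, 2 in 1 fit of all 18 arrays and 2 without both arrays that stand apart. In t12+/+T43 it was 1 and became 2 in the fit of 18 arrays. That fit also turned 0 into 1 between the carriers in sorted cells, and 2, 6 and 1 into 0 in the 3 testis comparisons (Ttf+/+T43H, t12+/+T43, and between them). No filter turned the last from 1 to 0. Leaving out 1 array gave 0 to 2 and 0 to 1 against C57BL/10J, 5 to 5 between stages, 4 to 6 for each carrier against mid-late cells, 1 to 3 and 2 to 6 against C57BL/6J and 0 to 1 between carrier testes. The tests between tissues gave 1 to 1 (Ttf+/+T43H) and 0 to 1 (t12+/+T43), and the carriers' difference between tissues was 0 throughout. Same-numbered carrier arrays deviated together at r = 0.25, 0.02 and -0.347 in sorted cells and 0.492, 0.045 and 0.677 in testes. These few pairs do not settle whether the numbers pair the arrays, least of all in testes, where every r was above 0. With a replicate block 0 genes were called against C57BL/10J in either carrier, 0 in both tests of carrier differences between tissues, 7 between stages, 5 and 6 against mid-late cells, 3 and 6 against C57BL/6J and 1 between carrier testes. The cause of these changes was not tested.

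Counts over all genes varied more. Against C57BL/10J pre-mid cells 199 genes were called in Ttf+/+T43H (18 to 1560 under other settings, 0 to 368 without 1 array) and 877 in t12+/+T43 (400 to 2213, 141 to 1391). Between the carriers 73 were called (0 to 575, 13 to 411), and between stages 5464 (5007 to 8867, 3874 to 4324). Against mid-late cells the counts were 5825 (5313 to 9775, 4139 to 6106) and 6224 (5643 to 9989, 4553 to 6424). In testes they were 782 (68 to 2139, 176 to 827), 1994 (195 to 2875, 596 to 1644) and 456 between carriers (7 to 1703, 9 to 900). Between tissues they were 78 (18 to 77, 46 to 429), 376 (127 to 1403, 111 to 862) and 866 (499 to 1788, 477 to 1691). The share called higher moved from 8.22% to 18.5% under quantile normalization between sorted carriers, from 21.5% to 31.5% and, with medians centred, 33.5% between carrier testes, and from 48.1% to 58.1% with medians centred in t12+/+T43 testes.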
